A study of Homo sapiens with 60 samples.

Results

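The genes described here are 45 genes of DNA replication and S phase, taken by name from the table of raw counts in all 60 libraries of the study. Each of the 45 names matched 1 gene of the table, and all 45 passed the filter on low counts, among 12341 genes that passed it. The members fall into 9 roles: origin licensing (ORC1, ORC6, CDC6, CDT1), the MCM2-7 helicase (MCM2, MCM3, MCM4, MCM5, MCM6, MCM7), helicase activation (CDC45, GINS1, GINS2, GINS3, GINS4, MCM10), primase and polymerases (POLA1, POLA2, PRIM1, POLE, POLE2, POLD1, POLD3), the sliding clamp and its loader (PCNA, RFC2, RFC3, RFC4, RFC5), single-strand binding and Okazaki fragment maturation (RPA1, RPA2, RPA3, FEN1, LIG1), nucleotide supply (RRM1, RRM2, TYMS, TK1, DUT), G1/S control (CCNE1, CCNE2, E2F1), and chromatin and checkpoint factors that act at forks (UHRF1, CHAF1A, CHAF1B, CLSPN).

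RNA of 1321N1, a human cell line derived from an astrocytoma, was measured by sequencing close to the 3′ end of polyadenylated transcripts. Cells received sodium metaarsenite at 2.55 µM (arsenic), cadmium chloride at 2.3 µM (cadmium) or mercury chloride at 20 µM (mercury). Cells were collected at 5 times, which were 1.5 h and 3 h, then 6 h, 12 h and 24 h, with non-treated cells each time. There are 20 groups of 3 libraries, which the labels call technical triplicates of a single line, so every p-value below measures the spread between these libraries and not between independent cultures. The study set the doses to be lethal to a minority of the cells in a longer exposure.

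DNA replication starts at origins that are loaded with inactive MCM2-7 helicase in G1 by the origin recognition complex, CDC6 and CDT1. Cyclin E and its kinase, together with the E2F transcription factors, then drive entry into S phase, where CDC45 and GINS join the helicase and the polymerases, clamp and ligase copy both strands. Many of these genes are known targets of E2F and rise in transcript level as dividing cells pass from G1 into S phase. In a bulk culture, fewer cells in S phase and less RNA of a gene per cell cannot be told apart.

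Promoter sequences are shown for 4 members on which the results turn. MCM7 had the largest fall, E2F1 encodes the transcription factor itself, and ORC6 and CDC6 were members that rose. The sequences come from RefSeq (GRCh38.p14), run from 250 bases before to 50 bases after the annotated start, and are written 5′ to 3′ on the strand of the gene. Capitals mark an exact E2F site, TTTCGCGC or TTTGGCGC on either strand.
MCM7, chr7:100101348-100101647, minus strand: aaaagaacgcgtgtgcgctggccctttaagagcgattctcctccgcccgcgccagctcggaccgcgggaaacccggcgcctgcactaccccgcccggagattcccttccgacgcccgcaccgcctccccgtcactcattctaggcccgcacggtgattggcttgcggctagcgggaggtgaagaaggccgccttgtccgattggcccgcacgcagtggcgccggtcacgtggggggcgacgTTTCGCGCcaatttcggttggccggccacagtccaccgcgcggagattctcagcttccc
E2F1, chr20:33686336-33686635, minus strand: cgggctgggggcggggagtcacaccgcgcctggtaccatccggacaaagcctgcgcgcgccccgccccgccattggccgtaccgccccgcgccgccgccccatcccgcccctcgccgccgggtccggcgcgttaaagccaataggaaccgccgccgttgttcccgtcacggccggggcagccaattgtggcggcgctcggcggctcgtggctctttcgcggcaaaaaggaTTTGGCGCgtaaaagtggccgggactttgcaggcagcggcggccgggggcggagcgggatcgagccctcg
CDC6, chr17:40287629-40287928, plus strand: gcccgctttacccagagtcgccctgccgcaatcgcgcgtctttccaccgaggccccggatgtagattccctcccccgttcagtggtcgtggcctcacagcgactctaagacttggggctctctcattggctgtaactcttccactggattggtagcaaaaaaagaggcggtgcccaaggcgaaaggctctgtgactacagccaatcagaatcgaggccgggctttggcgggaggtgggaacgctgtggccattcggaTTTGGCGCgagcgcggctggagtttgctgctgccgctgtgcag
ORC6, chr16:46689409-46689708, plus strand: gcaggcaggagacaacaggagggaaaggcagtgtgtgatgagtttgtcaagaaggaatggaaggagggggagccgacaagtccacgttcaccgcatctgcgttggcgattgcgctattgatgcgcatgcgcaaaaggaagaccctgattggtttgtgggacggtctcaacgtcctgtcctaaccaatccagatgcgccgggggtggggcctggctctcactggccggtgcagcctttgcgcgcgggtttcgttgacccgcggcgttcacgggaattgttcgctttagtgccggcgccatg

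The site lies at position -9 from the RefSeq start in MCM7, at -20 in E2F1 and at 7 in CDC6, and ORC6 holds no exact match. Of the 45 members, 38 had a promoter in the table, and 11 of these 38 (28.9%) held an exact E2F site, against 322 of all 27305 promoters of the same length (1.18%). The members with a site were CDC6, MCM2, MCM3, MCM6, MCM7, GINS1, POLA1, POLA2, POLE, POLE2 and E2F1. In MCM2 and in MCM6 the matches on the 2 strands overlapped. The box CCAAT, on either strand, was found in 22 of the 38 (57.9%) and in 35.7% of all promoters. Related lists, used further below, were read in the same way. Of the genes with a promoter in the table, an exact E2F site was in 6 of 15 other E2F target genes (40%). It was in 1 of 23 other replication genes (4.35%). It was in 2 of 25 G2 and mitosis genes (8%) and 1 of 14 G1/S regulators (7.14%). In the same order CCAAT was in 46.7%, 52.2%, 80% and 21.4%, so neither motif is particular to the members. A match is a description of the letters in this window, and it was not tested whether E2F binds there in these cells.

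The label of the line was compared with its markers. GFAP, S100B and FABP7 had no count in at least 57 of the 60 libraries, and AQP4 and ALDH1L1 in all 60, so these defining genes of mature astrocytes were at or near 0. SLC1A3 had a count in all but 5 libraries, at up to 4.05 CPM. SOX9 (29.2 to 125 CPM, a count scaled to its library's size) and GJA1 (10.5 to 39.5 CPM) were present, as were VIM (2880 to 5630 CPM) and CD44 (225 to 477 CPM), while blood and epithelial markers summed to at most 2.84 CPM in any library. NES, a marker of neural progenitors and glioma lines, was low (0.322 to 7.65 CPM), and of the neuron markers SYT1 was present in every library (5.98 to 22.4 CPM). The other neuron markers, RBFOX3, SNAP25 and TUBB3, had no count in 57, 47 and 53 of the 60 libraries. SLC1A2, an astrocyte marker, had none in 47. Library totals ran from 2215276 to 4404609 counts, and the 45 members together took 0.406% to 0.523% of them. The mitochondrial share ran from 1.35% to 7.94% of counts, with cadmium at 6 h library 1 lowest (1.35%) and arsenic at 3 h library 2 next (1.91%).

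Across the 15 comparisons of a metal with non-treated cells of the same time, 27 of the 45 members passed the test at least once and 18 never did. The test was edgeR's quasi-likelihood F test with Benjamini-Hochberg adjustment over all 12341 genes, and a member was called at an adjusted p under 0.05. Of the 57 calls, 49 were falls and 8 were rises, and only 4 calls exceeded an LFC (log2 fold change) of 1 in size, so that most changes were modest. Of all 12341 genes, 4910 (39.8%) were called at least once over the same comparisons, beside 60% of the members, and 44.7% of their calls were falls, beside 86% for the members. Leaving out any 1 library kept 23 of the 57 member calls, 18 falls and 5 rises. The 3 metals share the same non-treated libraries at each time, and their values are therefore not independent of each other.

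**Figure D1:**
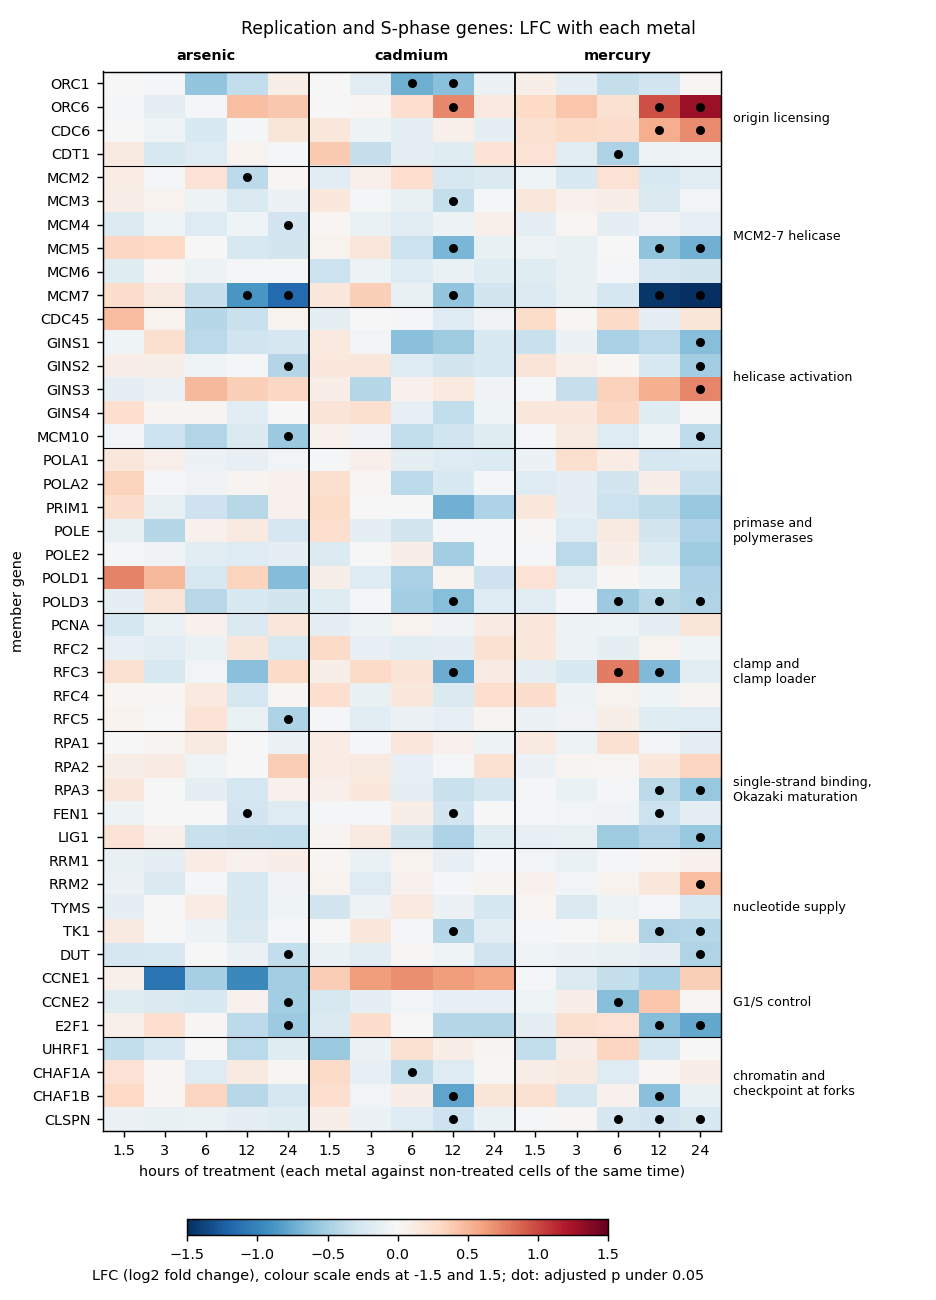
LFC of the 45 members (rows, grouped by role) with each metal against non-treated cells of the same time (columns, hours); colour gives the LFC, with a scale that ends at -1.5 and 1.5, and a dot marks an adjusted p under 0.05. Dots lie only at 6, 12 and 24 h, and MCM7 is the darkest blue row (LFC -1.83 with mercury at 24 h) while ORC6 is the darkest red (1.30).

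No member was called in the first 3 h. The background share of all tested genes called in either direction at 1.5 h was 0.567% for mercury, 0.0729% for arsenic and 0% for cadmium. At 3 h it was 1.55% for mercury, 0.138% for arsenic and 0.203% for cadmium. An unadjusted p under 0.05 was reached at 1.5 h by 7 members (arsenic), 6 (cadmium) and 1 (mercury), and at 3 h by 6, 3 and 3, and DESeq2 called 0 in each of these 6 comparisons. The backgrounds are at adjusted p. No share of all genes is given for the unadjusted counts, here or below, so they are not read as changes.

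At 6 h a few members changed. Arsenic gave 0 lower and 0 higher members, beside 0.308% and 0.608% of all genes (8 members had an unadjusted p under 0.05, and DESeq2 called 1). Cadmium gave 2 lower members, ORC1 and CHAF1A, and 0 higher, beside backgrounds of 0.446% and 1.6%. Mercury gave 4 lower members (CDT1, POLD3, CCNE2 and CLSPN) and 1 higher member (RFC3), beside 2.99% and 4.49%. Each of these 7 calls was lost when at least 1 of the libraries compared was left out.

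At 12 h cadmium and mercury each lowered 10 of the 45 members. Arsenic lowered 3 (MCM2, MCM7 and FEN1) and raised 0, beside 1.74% and 2.37% of all genes. Cadmium lowered 10 and raised 1, beside 2.99% and 5.19%. Mercury lowered 10 and raised 2, beside 7.16% and 8.89%. Leaving out 1 library gave 4 to 9 lowered members with cadmium, lowest without non-treated library 1 (4), cadmium library 3 (5) or cadmium library 2 (6), and 5 to 11 with mercury, lowest without mercury library 2 (5) or library 3 (6). With arsenic 1 was left without non-treated library 1. MCM7 and FEN1 were lower with all 3 metals, and CHAF1B, CLSPN, MCM5, POLD3, RFC3 and TK1 with both cadmium and mercury.

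At 24 h the 3 metals differed in how many members were called. Arsenic lowered 8 members and raised 0, beside 7.75% and 6.54% of all genes. The 8 became 3 without non-treated library 2, 4 without arsenic library 1 or library 2, 5 without non-treated library 1, and 4 when only these 2 groups were fitted, and MCM7, MCM10 and E2F1 were kept with any library left out. Cadmium gave 0 calls in either direction, beside 0.632% and 1.56%, with 5 members at an unadjusted p under 0.05 and 0 called by DESeq2. Mercury lowered 12 and raised 4, beside 13.9% and 13.9%, and the 4 that rose were ORC6, CDC6, GINS3 and RRM2. Without non-treated library 2 mercury lowered 7. MCM7, MCM10, GINS2, DUT and E2F1 were lower with both arsenic and mercury.

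**Figure D2:**
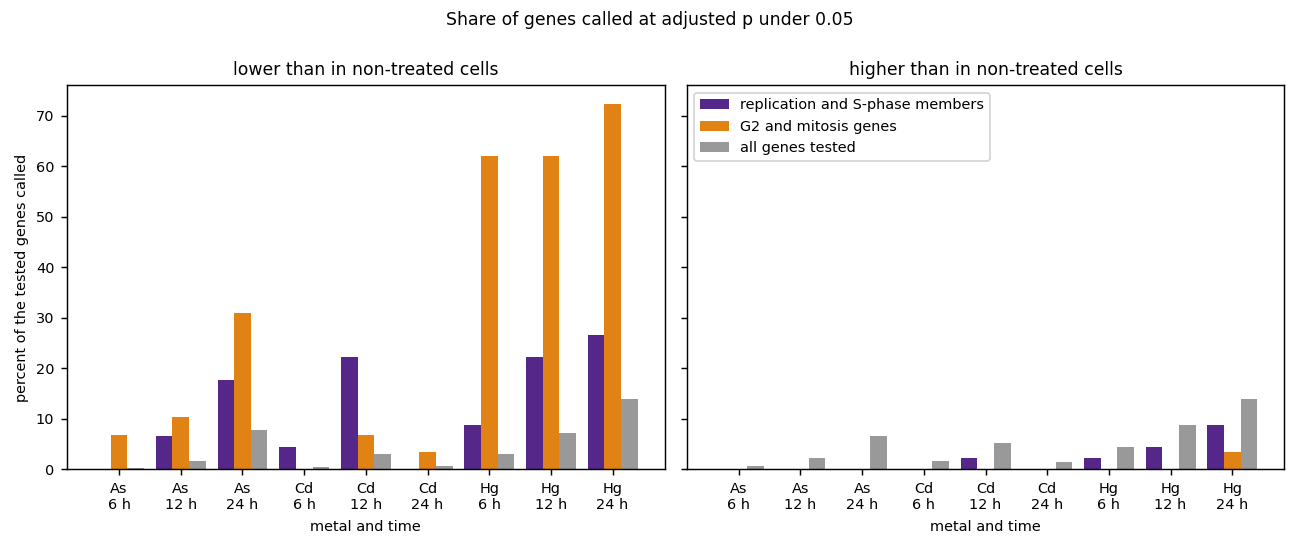
Percent of the 45 members (purple), of 29 tested G2 and mitosis genes (orange) and of all 12341 genes tested (grey) called lower (left) or higher (right) than in non-treated cells, by metal and time. Members were called lower more often than all genes at 12 h with each metal and at 24 h with arsenic and mercury, and the G2 and mitosis genes were called lower most often with mercury.

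The share of members called lower lay above that of all genes in each of these comparisons at 12 h and with arsenic and mercury at 24 h, while the share called higher lay below it. At 12 h the members had a median LFC of -0.20 for mercury, -0.21 for arsenic and -0.19 for cadmium, beside medians over all genes of -0.0205, -0.000124 and -0.0158. In the same order it was -0.17, -0.0868 and -0.0679 at 24 h, beside -0.0211, 0.00041 and -0.00694. These medians describe the members and were not tested.

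The mean log2 CPM of the 45 members gives a level per library. In non-treated cells it averaged 5.97 ± 0.0282 (SD, n = 3) after 1.5 h, 6.01 ± 0.0245 after 3 h and 5.99 ± 0.0229 after 6 h. The later means were 6.08 ± 0.0287 (12 h) and 5.93 ± 0.037 (24 h). Non-treated cells were thus highest at 12 h and lowest at 24 h, with libraries between 6.04 and 6.09 at 12 h and between 5.91 and 5.98 at 24 h. The mercury group at 12 h averaged 5.91 ± 0.0206, arsenic 5.91 ± 0.0101 and cadmium 5.86 ± 0.0144, and every one of these 9 libraries lay below the 3 non-treated libraries of that time. At 24 h arsenic (5.79 ± 0.021), cadmium (5.87 ± 0.0192) and mercury (5.77 ± 0.0569) also had all their libraries below the non-treated ones.

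**Figure D3:**
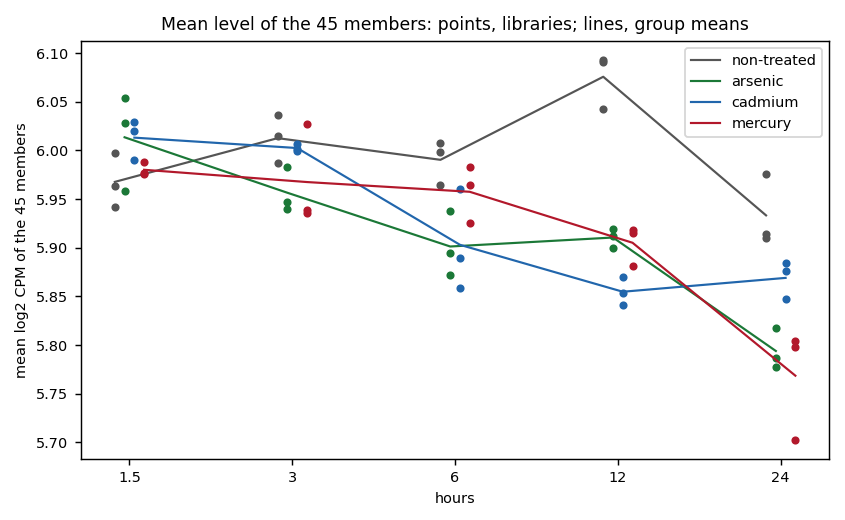
Mean log2 CPM of the 45 members (vertical axis, which does not start at 0) in each library by time; points are libraries and lines join group means. The non-treated group rises to 6.08 at 12 h and is 5.93 at 24 h, and all 18 metal libraries at 12 and 24 h lie below the non-treated libraries of their time.

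Non-treated cells were also compared over time. Against 1.5 h, non-treated cells at 12 h had 4 members called higher, MCM3, RFC4, RPA3 and CHAF1B, beside a background of 4.09% of genes called in either direction. At 24 h 1 member, RRM2, was lower than at 1.5 h (background 3.29%), and at 3 h and 6 h 0 members were called (0.122% and 0.486%), with 1 and 10 at an unadjusted p under 0.05 and 0 called by DESeq2. Each of these 5 calls was lost when at least 1 of the libraries compared was left out, with adjusted p of up to 0.299 (CHAF1B without non-treated at 1.5 h library 1).

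The MCM2-7 helicase is the ring of 6 related subunits that unwinds DNA ahead of the fork. Its member MCM7 (chr7:100092728-100101940, minus strand) fell with every metal at 12 h and had the largest LFC of any member against non-treated cells, with mercury at 24 h. In non-treated cells at 12 h MCM7 stood at 287, 261 and 266 CPM. Arsenic gave 153, 167 and 124 CPM. Cadmium gave 175, 188 and 179 CPM, and mercury 97.4, 102 and 96.3 CPM. No metal library overlapped the non-treated ones at 12 h. Mercury gave the largest LFC of the 3, -1.46 ± 0.14 (SE, adjusted p = 8.84e-14). It was -0.88 ± 0.13 for arsenic (adjusted p = 8.99e-07) and -0.59 ± 0.13 for cadmium (adjusted p = 0.00128).

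At 24 h non-treated cells held 243, 254 and 190 CPM of MCM7. With mercury 66.1, 57.6 and 70.1 CPM were left, the lowest levels of MCM7 in any group. Arsenic gave 106, 104 and 95.1 CPM, also below every non-treated library. Cadmium gave 163, 178 and 228 CPM, which overlapped the non-treated values. The LFC was -1.83 ± 0.14 (adjusted p = 2.37e-17) with mercury and -1.17 ± 0.13 (adjusted p = 2.42e-10) with arsenic, and -0.28 ± 0.13 (adjusted p = 0.344) with cadmium. These 2 falls and that with mercury at 12 h exceeded an LFC of 1 in size, as did 1.43% of all genes with arsenic at 24 h, 1.17% with mercury at 12 h and 2.62% with mercury at 24 h. Every call of MCM7 against non-treated cells was kept when any single library was left out and in the 7 other fits tried. Those with arsenic and cadmium at 12 h did not reach an LFC of 1 in size.

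Before 12 h MCM7 did not pass the test with any metal. At 6 h its LFC was -0.26 for mercury (adjusted p = 0.253), -0.34 for arsenic (adjusted p = 0.304) and -0.11 for cadmium (adjusted p = 0.789). At 1.5 and 3 h its LFC ran from -0.20 to 0.36 over the 3 metals.

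**Figure D4:**
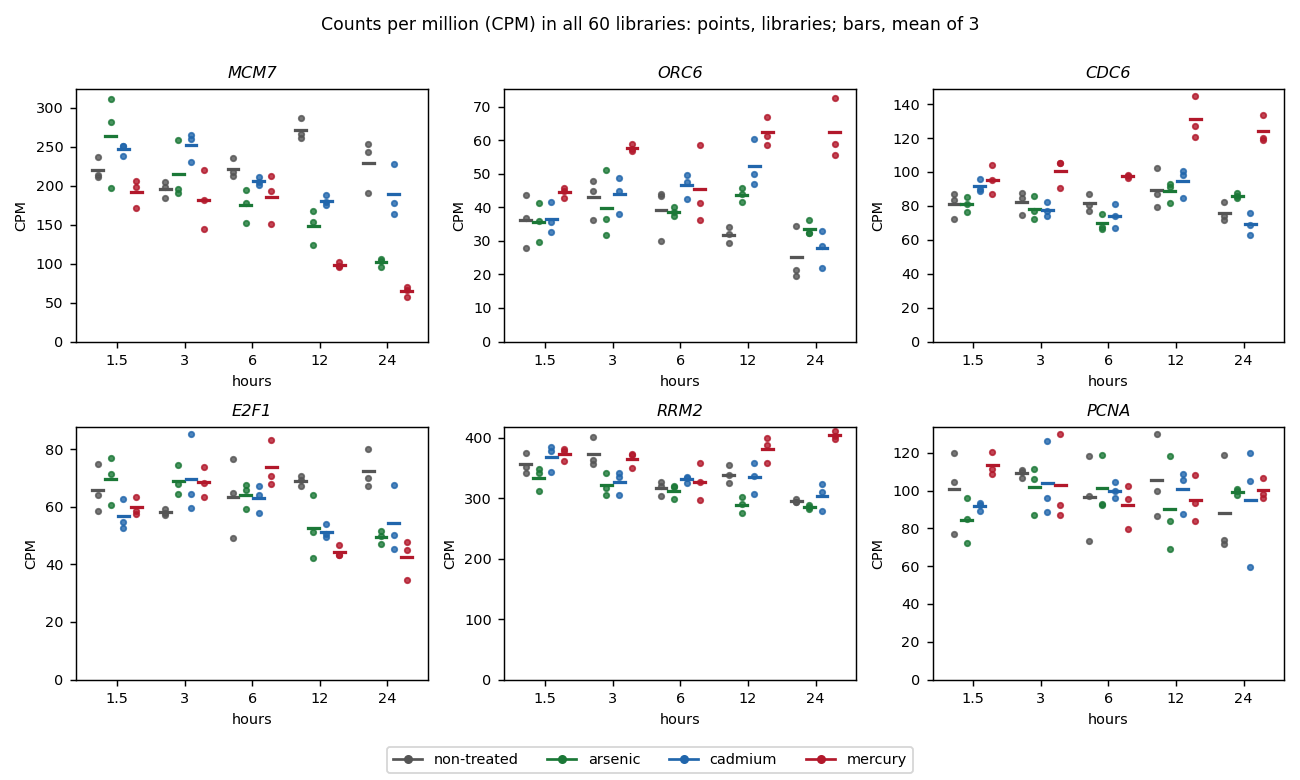
CPM of MCM7, ORC6, CDC6, E2F1, RRM2 and PCNA in all 60 libraries by time; points are libraries, short bars the mean of 3, colours the treatment, and every vertical axis starts at 0. MCM7 falls to 57.6 to 70.1 CPM with mercury at 24 h, ORC6, CDC6 and RRM2 stand above non-treated cells with mercury at 24 h, and PCNA at 24 h overlaps between mercury (95.8 to 106 CPM) and non-treated cells (71.6 to 119 CPM).

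The other 5 subunits of the same ring had a smaller LFC than MCM7 with arsenic and mercury at 12 and 24 h. With cadmium at 12 h the LFC of MCM5 was the larger. MCM5 stood at 121, 108 and 92.7 CPM in non-treated cells at 12 h, at 65.3, 63.3 and 70.9 CPM with cadmium and at 63.0, 60.6 and 87.7 CPM with mercury, without overlap. Its LFC was -0.69 ± 0.14 with cadmium (adjusted p = 0.000507), -0.60 ± 0.14 with mercury (adjusted p = 0.00128) and -0.24 ± 0.14 with arsenic (adjusted p = 0.424). At 24 h MCM5 was lower only with mercury, at 38.7, 53.3 and 64.4 CPM against 92.0, 92.2 and 72.4 CPM (LFC -0.72 ± 0.15, adjusted p = 8.44e-05).

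MCM2, MCM3 and MCM4 were each called in a single comparison of a metal with non-treated cells. MCM2 was lower with arsenic at 12 h, at 167, 161 and 157 CPM against 232, 214 and 191 CPM (LFC -0.39 ± 0.10, adjusted p = 0.00805), and lost the call without non-treated at 12 h library 1 (adjusted p = 0.0999). MCM3 was lower with cadmium at 12 h (LFC -0.36 ± 0.10, adjusted p = 0.0146), and the call was lost without any 1 of 3 libraries (adjusted p of up to 0.0981, without non-treated at 12 h library 1). Non-treated cells were called higher in MCM3 at 12 h than at 1.5 h, where they held 198, 193 and 189 CPM. Cadmium at 12 h gave 188, 211 and 185 CPM, which overlap those values of 1.5 h. MCM4 was lower with arsenic at 24 h (LFC -0.29 ± 0.09, adjusted p = 0.0223), and without arsenic at 24 h library 1, which held 128 CPM beside 155 and 172 CPM in the other arsenic libraries, its LFC was -0.19 (adjusted p = 0.241). MCM6 was called in no comparison, with an LFC between -0.33 and 0.02 over all 15.

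**Figure D5:**
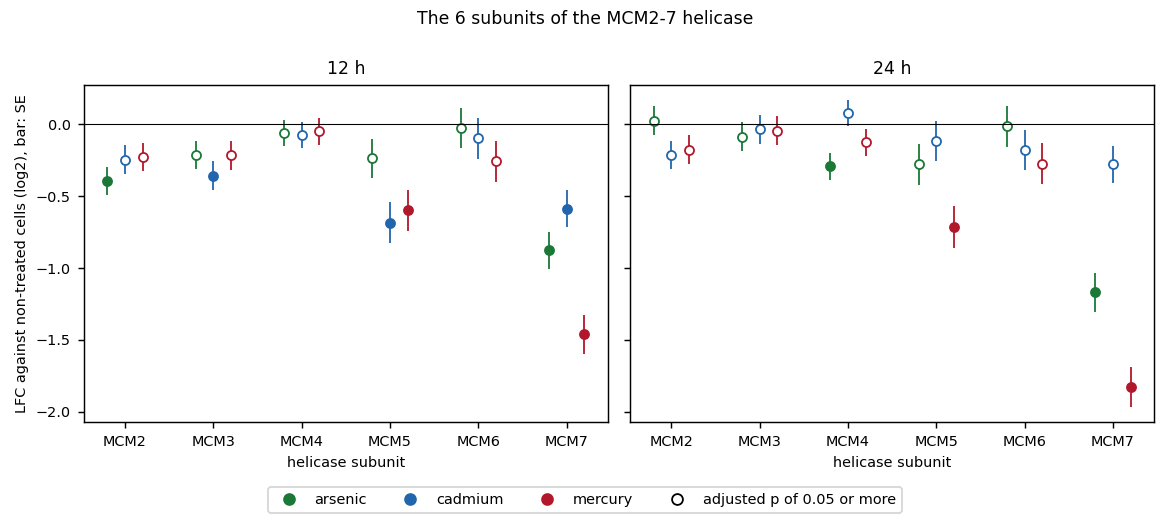
LFC against non-treated cells (vertical axis, log2; bars are SE) of the 6 helicase subunits at 12 h (left) and 24 h (right) with each metal; filled points passed the test and open points did not. MCM7 lies lowest with arsenic and mercury at both times, MCM5 is filled with mercury at both, and MCM6 is open throughout.

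The licensing factors moved in different directions. ORC6 (chr16:46689643-46698394, plus strand), the smallest subunit of the origin recognition complex, rose with mercury. At 12 h non-treated cells held 29.4, 34.3 and 32.0 CPM of ORC6 and mercury-treated cells 61.4, 67.0 and 58.6 CPM (LFC 0.97 ± 0.17, adjusted p = 1.98e-05). Cadmium gave 49.9, 60.4 and 47.1 CPM (LFC 0.72 ± 0.18, adjusted p = 0.00389), and arsenic 41.5, 45.7 and 43.9 CPM (LFC 0.46 ± 0.18, adjusted p = 0.147). All 9 metal libraries at 12 h lay above the 3 non-treated ones. The call with cadmium was lost without cadmium at 12 h library 2 (adjusted p = 0.0596).

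At 24 h ORC6 stood at 55.7, 58.9 and 72.7 CPM with mercury against 34.5, 19.7 and 21.4 CPM in non-treated cells. The LFC of 1.30 ± 0.18 (adjusted p = 1.93e-08) was the only rise of a member beyond 1, and 4.85% of all genes rose that far. Non-treated cells at 3 h held 48.0, 44.9 and 36.4 CPM of ORC6, and mercury at 24 h lay above these values too. Arsenic (LFC 0.41 ± 0.19, adjusted p = 0.139) and cadmium (LFC 0.15 ± 0.19, adjusted p = 0.826) did not pass the test.

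CDC6, the ATPase that helps to load the helicase, rose with mercury and with no other metal against non-treated cells. At 12 h mercury gave 145, 127 and 121 CPM against 86.7, 79.1 and 102 CPM (LFC 0.55 ± 0.10, adjusted p = 5.61e-05). At 24 h the values were 120, 134 and 119 CPM against 71.6, 73.8 and 82.2 CPM (LFC 0.71 ± 0.10, adjusted p = 1.28e-07). The groups did not overlap at either time. With arsenic the LFC was -0.01 at 12 h and 0.18 at 24 h, and with cadmium 0.08 and -0.13, all with adjusted p of 0.275 or more.

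ORC1, the largest subunit of the recognition complex, fell with cadmium. At 6 h it stood at 12.8, 22.2 and 22.4 CPM against 32.7, 32.9 and 29.2 CPM (LFC -0.74 ± 0.20, adjusted p = 0.0277). The low value belongs to cadmium at 6 h library 1, which also had the lowest mitochondrial share, and without that library the LFC was -0.50 (adjusted p = 0.27). At 12 h it was lower again (LFC -0.62 ± 0.20, adjusted p = 0.0328), a call lost without any 1 of 5 libraries (adjusted p of up to 0.244, without cadmium at 12 h library 2). Non-treated cells at 1.5 h held 23.6, 24.4 and 17.5 CPM of ORC1. Cadmium at 6 h and at 12 h (22.2, 14.9 and 21.4 CPM) overlapped those values of 1.5 h. Non-treated cells at 6 h and 12 h were not called different from 1.5 h in ORC1 (adjusted p = 0.245 and 0.2). CDT1, which delivers the helicase to origins, was lower only with mercury at 6 h (LFC -0.47 ± 0.15, adjusted p = 0.04), and lost the call without any 1 of 5 libraries (up to 0.196, without mercury at 6 h library 1). Mercury at 6 h gave 37.8, 47.9 and 40.5 CPM of CDT1, which overlap non-treated cells at 1.5 h (43.6 to 46.2 CPM). All non-treated libraries at 6 h lay above those of 1.5 h in CDT1, without a call (adjusted p = 0.297).

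Helicase activation showed falls at 24 h. MCM10, which helps the assembled helicase to start, stood at 87.1, 96.8 and 83.7 CPM in non-treated cells at 24 h and at 52.2, 57.0 and 72.5 CPM with arsenic (LFC -0.55 ± 0.12, adjusted p = 0.000722). Mercury gave 69.2, 72.5 and 63.4 CPM (LFC -0.38 ± 0.12, adjusted p = 0.0142), a call lost without non-treated at 24 h library 2 (adjusted p = 0.0828) or without mercury at 24 h library 3.

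The GINS complex holds CDC45 to the helicase, and its members did not move together. GINS2 fell with mercury at 24 h, at 39.3, 51.1 and 42.95 CPM against 61.6, 66.1 and 63.5 CPM (LFC -0.52 ± 0.14, adjusted p = 0.00237), and with arsenic (LFC -0.44 ± 0.13, adjusted p = 0.0181). The arsenic call was lost without arsenic at 24 h library 1 (adjusted p = 0.192), library 2, or non-treated library 2. GINS1 was lower with mercury at 24 h (LFC -0.64 ± 0.21, adjusted p = 0.0184), a call lost without mercury at 24 h library 1 (adjusted p = 0.109) or non-treated library 2.

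GINS3 was higher in the same comparison, at 26.1, 29.4 and 17.2 CPM against 13.9, 15.4 and 14.4 CPM (LFC 0.74 ± 0.22, adjusted p = 0.00928). Without mercury at 24 h library 2 its LFC was 0.57 (adjusted p = 0.0904). CDC45 and GINS4 were called in no comparison, and CDC45 had an LFC of 0.18 with mercury at 24 h (adjusted p = 0.582).

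Among primase and polymerase genes only POLD3, an accessory subunit of polymerase delta, was called. With mercury it was lower at 6, 12 and 24 h (LFC -0.55 ± 0.15, -0.42 ± 0.15 and -0.45 ± 0.15, with adjusted p of 0.0139, 0.0483 and 0.0192). With cadmium at 12 h it stood at 29.04, 36.7 and 24.2 CPM against 53.1, 38.3 and 48.5 CPM, without overlap (LFC -0.63 ± 0.16, adjusted p = 0.00399). Each of these 4 calls was lost when 1 of at least 2 libraries was left out. Their adjusted p then rose to at most 0.1 at 6 h (without mercury library 3), 0.252 at 12 h with mercury (without non-treated library 1), 0.11 at 24 h (without non-treated library 2) and 0.0796 with cadmium (without cadmium library 3).

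The other 6 members of this role had a negative LFC in mercury-treated cells at 24 h without passing the test, so that all 7 lay below 0, with a median of -0.46 (range -0.56 to -0.23). The median over all genes was -0.0211 in that comparison. No share of all genes below 0 is given beside this count. The 7 were not tested as a set, so no fall of the role as a whole is shown. For PRIM1 the LFC was -0.56 ± 0.25 with mercury at 24 h (adjusted p = 0.084) and -0.72 ± 0.25 with cadmium at 12 h (adjusted p = 0.06). PRIM1, POLA2 and POLD1 share part of their transcript ends with other genes, since 34%, 28.2% and 60.1% of their last 400 bases lie within another gene on the same strand, and their counts are uncertain.

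PCNA, the clamp that holds polymerases on DNA and a common marker of S phase, was called in no comparison. At 24 h it stood at 71.6, 74.1 and 119 CPM in non-treated cells and at 106, 98.2 and 95.8 CPM with mercury, which overlap (LFC 0.18 ± 0.18, adjusted p = 0.485). Its LFC ran from -0.26 to 0.18 over all 15 comparisons, and no adjusted p lay under 0.485. The spread of PCNA between libraries of a group was wide, for example 59.6, 105 and 120 CPM with cadmium at 24 h.

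RFC3, a subunit of the complex that loads the clamp, was the only member called in both directions. It rose with mercury at 6 h, at 64.9, 59.5 and 37.6 CPM against 27.3, 36.2 and 31.1 CPM (LFC 0.76 ± 0.21, adjusted p = 0.0122). At 12 h it was lower with mercury (LFC -0.66 ± 0.21, adjusted p = 0.019) and with cadmium (LFC -0.75 ± 0.21, adjusted p = 0.0157). Non-treated cells at 12 h held 72.4, 45.1 and 40.6 CPM. Without the first of these libraries the LFC was -0.37 with mercury (adjusted p = 0.332) and -0.45 with cadmium (adjusted p = 0.298). The 12 h calls were also lost without mercury library 3, and without cadmium library 1 or library 2. The 6 h rise was lost without any 1 of 4 libraries, with an adjusted p of 0.106 without mercury at 6 h library 1. Non-treated cells at 1.5 h held 53.2, 37.7 and 44.2 CPM of RFC3, which overlap mercury at 6 h. All non-treated libraries at 6 h lay below those of 1.5 h, without a call (adjusted p = 0.317). Mercury at 12 h gave 34.8, 36.3 and 28.8 CPM and cadmium 29.0, 29.9 and 35.1 CPM. Both overlap non-treated cells at 6 h.

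RFC5 was lower with arsenic at 24 h (LFC -0.46 ± 0.16, adjusted p = 0.0412), and without non-treated at 24 h library 2 its LFC was -0.29 (adjusted p = 0.339). RFC2 and RFC4 were called against non-treated cells in no comparison with a metal.

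RPA3 is the smallest subunit of the complex that coats single-stranded DNA. With mercury at 24 h it stood at 61.7, 61.1 and 65.1 CPM against 93.5, 95.3 and 90.6 CPM (LFC -0.57 ± 0.13, adjusted p = 0.000349). The spread within both groups was small and they did not overlap. At 12 h with mercury its LFC was -0.41 ± 0.12 (adjusted p = 0.0158), lost without non-treated at 12 h library 2 (adjusted p = 0.146), mercury library 2 or mercury library 3. Non-treated cells were called higher in RPA3 at 12 h than at 1.5 h, where they held 82.8, 86.1 and 80.8 CPM. Mercury at 12 h gave 91.7, 83.6 and 81.3 CPM, which overlap those values of 1.5 h. The larger subunits RPA1 and RPA2 were not called, and RPA2 had an LFC of 0.32 ± 0.15 with mercury at 24 h (adjusted p = 0.0957).

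FEN1, the nuclease that trims Okazaki fragments, was lower with all 3 metals at 12 h, by small amounts. It stood at 314, 317 and 331 CPM in non-treated cells and at 264, 255 and 250 CPM with mercury (LFC -0.32 ± 0.09, adjusted p = 0.00644). With arsenic (LFC -0.28, adjusted p = 0.0489) and cadmium (LFC -0.29, adjusted p = 0.0307) the call was lost without any 1 of 5 libraries, up to an adjusted p of 0.217 (without arsenic library 1) and 0.245 (without cadmium library 2). Non-treated cells at 24 h held 260, 256 and 250 CPM of FEN1, which overlap mercury at 12 h. LIG1, the ligase that seals the fragments, was lower with mercury at 24 h, at 23.9, 22.6 and 20.8 CPM against 33.5, 32.0 and 34.9 CPM (LFC -0.57 ± 0.20, adjusted p = 0.0228), lost without any 1 of 4 libraries (up to 0.0788, without mercury library 3).

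Nucleotide supply genes split between a rise and falls. RRM2, the S-phase subunit of ribonucleotide reductase, was higher with mercury at 24 h, at 398, 411 and 403 CPM against 293, 298 and 293 CPM (LFC 0.45 ± 0.08, adjusted p = 2.87e-06). Non-treated cells were themselves lower at 24 h than at 1.5 h, where they held 375, 351 and 341 CPM (adjusted p = 0.0319). At 3 h they held 401, 363 and 357 CPM, which overlap mercury at 24 h. At 24 h arsenic (282, 285 and 288 CPM) and cadmium (310, 324 and 278 CPM) did not pass the test. RRM1, the partner subunit, stood at 453, 479 and 435 CPM with mercury at 24 h against 436, 428 and 442 CPM (LFC 0.07 ± 0.09, adjusted p = 0.638). Of RRM1 and RRM2, only RRM2 thus passed the test with a metal.

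DUT, which removes dUTP, was lower at 24 h with mercury (264, 276 and 264 CPM against 345, 378 and 381 CPM, LFC -0.45 ± 0.11, adjusted p = 0.0013) and with arsenic (LFC -0.36 ± 0.11, adjusted p = 0.0187). The arsenic call was lost without any 1 of 4 libraries (up to 0.0905, without arsenic at 24 h library 1). TK1, thymidine kinase, was lower with mercury at 12 h (LFC -0.45 ± 0.14, adjusted p = 0.0201) and 24 h (LFC -0.43 ± 0.14, adjusted p = 0.0172) and with cadmium at 12 h (LFC -0.42 ± 0.14, adjusted p = 0.049). Each of these 3 calls was lost without any 1 of 4 libraries, with an adjusted p of up to 0.158, 0.106 and 0.273 without non-treated library 1 at 12 h, non-treated library 2 at 24 h and non-treated library 1 at 12 h. Non-treated cells at 1.5 h held 58.9, 64.2 and 52.5 CPM of TK1. Mercury (61.8, 50.8 and 54.7 CPM) and cadmium (65.8, 50.65 and 54.1 CPM) at 12 h overlap those values. Non-treated cells at 12 h were not called different from 1.5 h in TK1 (adjusted p = 0.131). TYMS, thymidylate synthase, was called in no comparison.

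E2F1, the transcription factor, fell later than 6 h. At 12 h non-treated cells held 67.1, 70.7 and 69.4 CPM and mercury-treated cells 43.4, 46.6 and 43.2 CPM (LFC -0.64 ± 0.15, adjusted p = 0.000883). At 24 h mercury gave 34.6, 44.9 and 47.6 CPM against 70.1, 79.9 and 67.2 CPM (LFC -0.77 ± 0.14, adjusted p = 2.08e-05). Arsenic gave 51.5, 49.8 and 47.1 CPM at 24 h (LFC -0.55 ± 0.14, adjusted p = 0.00402). None of these groups overlapped the non-treated one, and the 3 calls were kept when any single library was left out. With cadmium the LFC was -0.43 ± 0.14 at 12 h (adjusted p = 0.0502) and -0.42 ± 0.14 at 24 h (adjusted p = 0.106).

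The cyclins E activate the kinase at the G1/S border. CCNE2 was lower with mercury at 6 h (25.6, 19.2 and 30.2 CPM against 42.9, 47.2 and 28.3 CPM, which overlap, LFC -0.64 ± 0.18, adjusted p = 0.016) and with arsenic at 24 h (25.1, 20.0 and 20.0 CPM against 29.1, 35.7 and 28.9 CPM, LFC -0.53 ± 0.19, adjusted p = 0.0467). Both calls were lost without any 1 of 4 libraries, with adjusted p of up to 0.174 (without mercury library 2) and 0.211 (without non-treated library 2). CCNE1, with a mean of 20.3 counts per library the lowest of the members, was called against non-treated cells in no comparison. At 12 h it stood at 6.99, 12.4 and 7.86 CPM in non-treated cells, at 3.36, 5.75 and 4.74 CPM with arsenic and at 20.0, 11.7 and 10.9 CPM with cadmium. Arsenic and cadmium thus lay on either side, with an LFC of -0.96 ± 0.39 (adjusted p = 0.189) and 0.63 ± 0.37 (adjusted p = 0.323).

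CHAF1B, a subunit of the factor that places histones behind the fork, was lower at 12 h. Non-treated cells held 34.1, 27.8 and 33.3 CPM, cadmium 14.5, 19.5 and 20.7 CPM (LFC -0.79 ± 0.18, adjusted p = 0.00169) and mercury 18.8, 17.8 and 24.6 CPM (LFC -0.63 ± 0.17, adjusted p = 0.00703). The mercury call was lost without mercury at 12 h library 2 (adjusted p = 0.0655). Non-treated cells held only 16.2, 25.5 and 21.9 CPM at 1.5 h and were called higher at 12 h (adjusted p = 0.0374). Mercury at 12 h lay within that range of 1.5 h, as did cadmium libraries 2 and 3. At 24 h no metal lowered CHAF1B, and cadmium gave 30.5, 26.9 and 29.1 CPM against 24.7, 26.1 and 25.4 CPM (LFC 0.18, adjusted p = 0.73). CHAF1A, its partner, was lower only with cadmium at 6 h (LFC -0.38 ± 0.11, adjusted p = 0.042), a call lost without any 1 of 5 libraries (up to 0.344, without cadmium library 3). Cadmium at 6 h gave 112.1, 93.66 and 80.01 CPM of CHAF1A, which overlap non-treated cells at 1.5 h (96.83 to 104.6 CPM). All non-treated libraries at 6 h lay above those of 1.5 h in CHAF1A, without a call (adjusted p = 0.182).

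CLSPN, claspin, a checkpoint mediator at the fork, fell by small amounts. Its LFC was -0.31 ± 0.08 with cadmium at 12 h (adjusted p = 0.008), and with mercury -0.25, -0.29 and -0.23 at 6, 12 and 24 h (adjusted p = 0.0413, 0.00889 and 0.0287). The cadmium call was kept with any library left out, and those with mercury were lost, at 12 h only without mercury library 2 (adjusted p = 0.0664), at 6 h and 24 h without any 1 of 5 libraries (up to 0.176 without mercury at 6 h library 1 and 0.0843 without non-treated at 24 h library 2). UHRF1, which recruits the maintenance DNA methyltransferase, was called in no comparison, and 21.9% of the 50-base stretches of its transcript end also occur in another gene, so its counts are uncertain.

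The metals were also compared with each other. At 12 h 3 members differed between arsenic and mercury (CDC6, MCM7 and RRM2), beside 6.84% of all genes, and 2 between cadmium and mercury (CDC6 and MCM7), beside 3.29%. All 5 of these calls were kept when any library was left out. MCM7 was higher with arsenic than with mercury by an LFC of 0.59 ± 0.14 (adjusted p = 0.00295), and higher with cadmium than with mercury by 0.88 ± 0.14 (adjusted p = 8.72e-06). CDC6 was lower with arsenic (LFC -0.56 ± 0.10, adjusted p = 9.61e-05) and with cadmium (LFC -0.47 ± 0.11, adjusted p = 0.0031) than with mercury.

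Arsenic and cadmium differed at 12 h in 2 members, beside 5.77% of all genes. CCNE1 was lower with arsenic than with cadmium (LFC -1.59 ± 0.39, adjusted p = 0.00521), a call lost without cadmium at 12 h library 1 (adjusted p = 0.0694) or arsenic library 1. MCM5 was higher with arsenic (LFC 0.45 ± 0.14, adjusted p = 0.0461), a call lost without any 1 of 5 libraries (up to 0.188, without arsenic library 1).

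Mercury was also compared with both other metals at 24 h. Between cadmium and mercury 6 members differed, beside 20% of all genes, and between arsenic and mercury 8, beside 11.4%. MCM7 was higher with cadmium than with mercury by an LFC of 1.55 ± 0.14 (adjusted p = 9.24e-14), and ORC6 lower by -1.14 ± 0.18 (adjusted p = 7.45e-07). CDC6 was lower with cadmium than with mercury (LFC -0.84 ± 0.11, adjusted p = 3.82e-09) and with arsenic than with mercury (LFC -0.53 ± 0.10, adjusted p = 0.000162).

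RRM2 was lower with cadmium (LFC -0.41 ± 0.08, adjusted p = 3.95e-05) and arsenic (LFC -0.50 ± 0.08, adjusted p = 1.21e-06) than with mercury at 24 h. RPA3 was higher with arsenic than with mercury (LFC 0.64 ± 0.13, adjusted p = 0.00022). These differences in ORC6, CDC6, MCM7, RPA3 and RRM2 were kept when any library was left out. Without mercury at 24 h library 1 the difference of MCM5 between arsenic and mercury fell from an LFC of 0.44 to 0.26 (adjusted p = 0.354), and that between cadmium and mercury from 0.60 to 0.42 (adjusted p = 0.0532).

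Arsenic and cadmium differed at 24 h in 6 members, beside 10.2% of all genes. MCM7 was lower with arsenic (LFC -0.89 ± 0.13, adjusted p = 8e-07) and was the only one of the 6 that was kept with any library left out. MCM4, MCM10, RFC2 and RFC5 were lower and CDC6 higher with arsenic, with adjusted p between 0.004 and 0.0485. MCM4 lost the call without arsenic at 24 h library 1 (adjusted p = 0.0934), and the other 4 without any 1 of 4 or 5 libraries.

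Whether a metal's effect differed between 12 and 24 h was tested directly, and 0 members were called for any metal, beside 0.624% of all genes for mercury, 1.57% for arsenic and 0.381% for cadmium. By an unadjusted p under 0.05 there were 3, 5 and 8 members, and DESeq2 called 0 for each metal. The fall from 10 lowered members at 12 h to 0 at 24 h with cadmium is therefore not shown to be a difference in effect for any single member. The closest was CHAF1B with cadmium, whose LFC was higher at 24 h than at 12 h by 0.97 ± 0.25 (adjusted p = 0.0509), and RFC3 with arsenic (0.91 ± 0.29, adjusted p = 0.0853).

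Other genes of the same pathway were read from fixed lists. Of 28 tested replication genes outside the members, 2 were lower and 1 higher with arsenic at 24 h, 2 lower with cadmium at 12 h, and 3 lower with mercury at 24 h. The lowered shares were 7.14%, 7.14% and 10.7%, beside 7.75%, 2.99% and 13.9% of all genes, so those with arsenic and mercury lay below the background. Of all genes 6.54% were higher with arsenic at 24 h. RECQL4, a helicase that helps to start replication, was lower with arsenic at 24 h (LFC -0.62, adjusted p = 0.00221). POLD2 (LFC -0.56, adjusted p = 0.000142), the partner of POLD3, and RNASEH2C (LFC -0.52, adjusted p = 0.0115), a subunit of RNase H2, were lower with mercury.

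Of 20 other E2F target genes, 3 were lower with arsenic at 24 h, and 4 were lower and 3 higher with mercury. The lowered shares of 15% and 20% stand beside 7.75% and 13.9% of all genes. With mercury at 24 h 13.9% of all genes were higher. DNMT1, the maintenance DNA methyltransferase, fell with mercury (LFC -0.67 ± 0.08, adjusted p = 4.86e-10) and arsenic (LFC -0.63 ± 0.08, adjusted p = 5.17e-09) at 24 h. RBL1, a pocket protein, fell with mercury (LFC -0.73, adjusted p = 0.00145). E2F7, an E2F that represses, rose with mercury at 6, 12 and 24 h (LFC 1.05, 1.05 and 1.10, adjusted p = 0.000254, 0.000132 and 3.62e-05) and with cadmium at 12 h (LFC 1.07, adjusted p = 0.000256). E2F7 and E2F1 thus moved in opposite directions with mercury at 12 and 24 h.

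Of 16 tested G1/S regulators, 6 were lower and 1 higher with arsenic at 24 h, and 6 lower and 2 higher with mercury. Both lowered shares were 37.5%, beside 7.75% and 13.9% of all genes. Of all genes 6.54% were higher with arsenic and 13.9% with mercury. CDKN1A, the inhibitor p21 that holds cells before S phase, rose with mercury at 6, 12 and 24 h (LFC 1.25, 0.88 and 1.71, adjusted p = 3.48e-08, 1.53e-05 and 1.71e-14). At 24 h CDKN1A stood at 135 ± 11.9 CPM (SD, n = 3) against 41.0 ± 2.50 CPM in non-treated cells. With arsenic its LFC was 0.18 (adjusted p = 0.513) and with cadmium 0.41 (adjusted p = 0.216). CDKN2C, another inhibitor, fell with mercury (LFC -0.76, adjusted p = 2.37e-06) and arsenic (LFC -0.64, adjusted p = 0.000129) at 24 h. CDKN1C, the inhibitor p57, stood at 8.41 ± 3.05 CPM with cadmium at 24 h against 0.782 ± 0.878 CPM (adjusted p = 0.00183), on few counts.

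Genes of G2 and mitosis, which act after S phase, give a contrast to the members. With mercury 18 of 29 were lower at 6 h, 18 at 12 h and 21 at 24 h (1 was higher at 24 h), a share of 72.4% at 24 h beside 13.9% of all genes, where 4, 10 and 12 of the 45 members were lower. Their median LFC with mercury at 24 h was -0.49, beside -0.17 for the members. With arsenic at 24 h 9 of 29 were lower, and with cadmium 2 at 12 h and 1 at 24 h. Of all genes 7.75%, 2.99% and 0.632% were lower, in the same order. With mercury 2.99% and 7.16% of all genes were lower at 6 and 12 h, and 13.9% were higher at 24 h. The 45 members and the 29 genes were not tested against each other.

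MKI67, the proliferation antigen, stood at 220 ± 1.17 CPM with mercury at 24 h against 445 ± 60.5 CPM (LFC -1.01 ± 0.11, adjusted p = 4.95e-11). CDC20 (LFC -1.01, adjusted p = 2.54e-11) and PLK1 (LFC -0.87, adjusted p = 1.95e-10) fell by like amounts. With cadmium at 24 h PLK1 was lower (LFC -0.46, adjusted p = 0.00293) while MKI67 (LFC -0.33, adjusted p = 0.121) and CDC20 (LFC 0.03, adjusted p = 0.956) did not pass the test.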

How the data were processed

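RNA from 60 libraries was sequenced as QuantSeq 3′ ends. The authors aligned reads with STAR 2.7.9a to GRCh38 and counted them per gene, by strand, with the GENCODE annotation, release 43, and deposited the raw counts. Spike-in rows held 0 counts. Here, genes were kept by filterByExpr of edgeR 4.0.16 (minimum count 10, minimum total 15; R 4.3.3), TMM factors were used, and 1 quasi-likelihood model of all 60 libraries with a coefficient per group gave each contrast, with Benjamini-Hochberg adjustment per contrast; limma 3.58.1 and DESeq2 1.42.0 were loaded, the latter as an alternative. CPM used TMM library sizes, with a prior count of 2 for log2. Totals of 2215276 to 4404609 counts limit genes of few counts, for counting error only. Gene coordinates are those of GENCODE release 44.

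Members and lists were chosen with earlier results of these data known. Named are the member of each role with the smallest adjusted p, the 2 largest calls each way per metal and time, PCNA, MCM2, CDC6, RRM2, CCNE1, CCNE2, E2F1 and CDKN1A, and the top 3 of each other list at 24 h; other members are named after their values were seen. The steps were tested on simulated data. No 2 libraries of a group agreed within sampling noise (lowest chi-square per degree of freedom 1.997 over 60 pairs).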

Additional observations from a re-analysis of the deposited data

How the results depend on the processing

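No called LFC of a member and no mean log2 CPM difference changed direction under any alternative. Changes of sign in values that were not called were not recorded. The |LFC| over 1 rule left 0 lowered members with arsenic at 12 h, 1 at 24 h, 0 with cadmium at 6 h and 0 at 12 h, where 0 were higher, and with mercury 0 lower and 0 higher at 6 h, 1 lower and 0 higher at 12 h, and 1 each way at 24 h. When only the groups compared entered the fit, lowered members numbered 1 with arsenic at 6 h (0 in the reported fit), 4 at 24 h (8), 0 with cadmium at 6 h (2) and 0 with mercury at 6 h (4), 2 members were called with cadmium at 1.5 h (0), 1 between arsenic and cadmium at 24 h (6), and in non-treated cells 1 at 6 h (0) and 0 at 24 h (1). With no filter on low counts, lowered members were 4 with arsenic at 24 h, 0 with cadmium at 6 h and 1 with mercury at 6 h, while 3 differed between arsenic and cadmium and 5 between arsenic and mercury at 24 h, 1 in the arsenic effect between times, and in non-treated cells 1 at 6 h and 0 at 24 h. DESeq2 called 1 lower with arsenic at 6 h and 4 between arsenic and cadmium at 12 h (2). Total counts without TMM gave 1 lower with cadmium at 24 h and 1 in the cadmium effect between times, and moved the mean log2 CPM difference to -0.29 with cadmium at 12 h, -0.10 at 24 h and -0.20 with mercury at 12 h; RLE factors and a filter of 30 counts in 3 libraries each gave 1 in the cadmium effect.

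Leaving out 1 library at a time gave lowered members of 1 to 3 with arsenic at 12 h, 3 to 7 at 24 h, 0 to 2 with cadmium at 6 h, 4 to 9 at 12 h and 0 to 1 at 24 h, and with mercury 0 to 2 at 6 h, 5 to 11 at 12 h and 7 to 11 at 24 h. Higher members were 0 to 1 with arsenic at 24 h, with cadmium at 12 h and with mercury at 6 h. Differences numbered 0 to 3 between arsenic and cadmium at 12 h, 1 to 6 at 24 h, 5 to 7 between arsenic and mercury at 24 h, 0 to 1 for the arsenic and cadmium effects between times, 0 to 4 in non-treated cells at 12 h and 0 to 1 at 24 h. The mean log2 CPM difference ran from -0.18 to -0.16 with arsenic at 12 h, -0.15 to -0.12 at 24 h, -0.24 to -0.21 with cadmium at 12 h and -0.0758 to -0.0429 at 24 h.

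The replicate numbers did not pair the libraries: over 45 pairs the correlation of deviations had a median of -0.00799 (range -0.278 to 0.0837), with 0 above 0.1. With the replicate number as a block, 1 member differed between arsenic and cadmium at 12 h (2 without), and FEN1 with arsenic and POLD3 with mercury at 12 h lost their calls.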

Other observations

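Among the members, the deviation of a library from the mean of its own group was compared between genes, on the log2(CPM + 1) scale over 60 libraries. This comparison was chosen after the values were seen and is a description with no test. The median correlation over 990 pairs of members was 0.00741. RRM1 and DUT (r = 0.754) and PCNA and TYMS (r = 0.739) deviated together, while MCM7 and TYMS (r = -0.629) and MCM7 and PCNA (r = -0.577) deviated in opposite directions. Library 3 of non-treated cells at 24 h held 190 CPM of MCM7, 551 CPM of TYMS and 119 CPM of PCNA. Library 3 of cadmium at 24 h held 228 CPM of MCM7, 266 CPM of TYMS and 59.6 CPM of PCNA. The points share libraries and depth, and the source of this spread was not tested.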
